A study of Homo sapiens with 2 samples.

Results

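Long intergenic noncoding RNA genes that carry a LINC symbol were compared between PLC/PRF/5 cells treated with JIB-04 and cells treated with DMSO. The genes were chosen by 2 criteria, a current NCBI symbol that starts with LINC followed by a digit or a hyphen, and at least 1 TPM in either library. Of 27685 genes in the files 1711 carried such a symbol at any level, and 212 of these reached the TPM limit. Because the limit was set on these 2 libraries, the levels that follow describe the genes and are not a test of their expression. TPM is a length-corrected share of all RNA measured, so a gain of some RNAs lowers the values of all others.

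PLC/PRF/5 is an established human hepatocellular carcinoma cell line, and JIB-04 is a small molecule that inhibits the Jumonji family of histone lysine demethylases. Both groups are the same line after 24 h, 1 with DMSO, the solvent, and the other with 6 µM JIB-04, and each was sequenced as 1 library. In GEO's labels a treatment field calls the control untreated, while its title and protocol name DMSO. The libraries were made with a stranded mRNA kit, which captures polyadenylated RNA, so noncoding RNA without a poly(A) tail was largely outside the measurement.

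LINC symbols are given to long noncoding RNA genes that lie between protein-coding genes and have no better name. Many of these RNAs are spliced and polyadenylated like messenger RNA, are transcribed at low levels and in few cell types, and are trimmed or degraded in the nucleus by the RNA exosome and its cofactors. Some act on chromatin near their own gene or bind proteins, and for most no function is known.

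Sequencing depth, estimated from the deposited coverage, was 28187793 fragments for DMSO and 23721989 for JIB-04, a fragment being taken as 202 aligned bases. All 10 hepatocyte markers had a TPM of at least 1 with DMSO and 8 of 10 with JIB-04, and their summed level was 1742 and 1835 TPM. Of these 10 markers 6 were lower with JIB-04, among them APOB at 103 and 32.9 TPM and ALB at 9.74 and 4.53 TPM, while FGB was at 771 and 961 TPM. Of 6 leukocyte markers 3 (CD68, CD14 and LYZ) reached 1 TPM in both libraries, with PTPRC listed at 0, and the 4 endothelial markers stayed under 1 TPM. Of 6 fibroblast or stellate markers 2 reached 1 TPM with DMSO and 1 with JIB-04, COL1A1 being at 16.0 and 10.6 TPM. Each difference rests on 1 library per condition, so it has no replicate check and no p-value is given. Intervals (95%, exact binomial, conditional on the fragments of both libraries) cover counting error only.

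LINC genes were a small part of the RNA in both libraries. Their summed level was 1513 TPM with DMSO against 1446 TPM with JIB-04, which is 0.151% and 0.145% of all TPM, and the median level of a gene was 3.05 and 2.77 TPM. Of the 212 genes 157 reached 1 TPM in both libraries, 34 with DMSO alone and 21 with JIB-04 alone. The 10 highest genes of each library held 35.2% and 35.5% of the LINC total. Fewer cells with an RNA and less of it per cell cannot be told apart in bulk libraries.

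With JIB-04, 16 LINC genes (7.55%) were higher by 2-fold or more and 14 (6.60%) lower by 2-fold or more on TPM + 1, and 182 stayed within 2-fold. Among all 14450 genes that reached at least 1 TPM in either library, 5.99% were higher and 6.88% lower by the same measure. LINC genes are weakly expressed, and among all genes with a mean TPM under 5 the shares were 9.3% higher and 8.1% lower, against 11 (8.09%) and 10 (7.35%) of the 136 LINC genes in that range. From 5 to under 20 TPM 3 of 64 LINC genes (4.69%) were higher and 4 (6.25%) lower, against 5.07% and 7.97% of all genes at that level. In these ranges the shares of LINC genes past 2-fold were close to those of all genes. The median log2 ratio was -0.18, with quartiles of -0.53 and 0.32, and that of all genes was -0.15. In all, 99 LINC genes lay above the median of all genes and 113 below it.

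Scaling the libraries to genes at or above 10 TPM in both, whose median log2 ratio was -0.15, moved the median of all genes by 0.14 and changed the balance of calls over all genes. The calls that were higher made up 46.5% of all genes' calls without this scaling and 62.0% with it, from 1108 higher and 679 lower genes. Among the LINC genes the same share was 53.3% without it and 58.6% with it, from 17 higher and 12 lower genes, with LINC01224 and LINC01942 no longer past 2-fold.

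Counting error separates many of these genes from no change in these libraries. The interval of the log2 ratio lay above 0 for 45 LINC genes, below 0 for 67 and across 0 for 100. All 16 higher and all 14 lower genes had an interval on their own side of 0, but it was wholly past 2-fold in only 4 higher genes (LINC01564, LINC00482, LINC03009 and LINC01588) and 2 lower genes (LINC01139 and LINC01619). The median gene had 54.5 estimated fragments with DMSO and 36 with JIB-04, and 37 genes had under 20 in both.

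**Figure D1:**
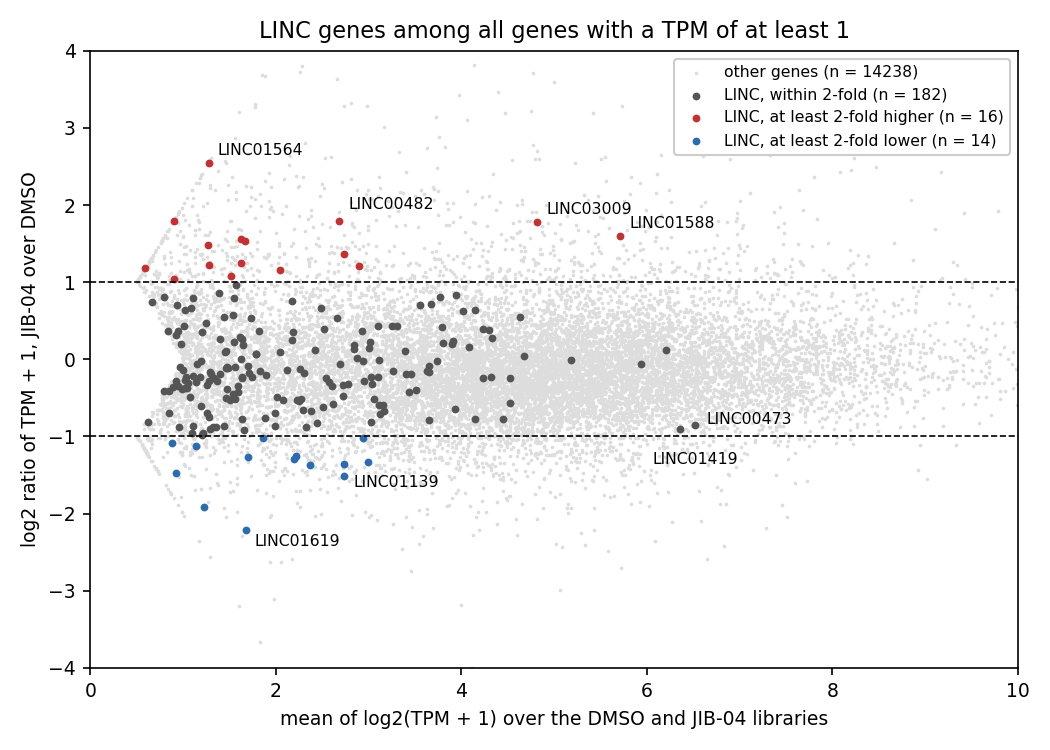
Mean level of a gene over both libraries (x axis, log2 of TPM + 1) against its log2 ratio of TPM + 1, JIB-04 over DMSO (y axis), with other genes in light grey and the 212 LINC genes in dark grey, red (16 higher) and blue (14 lower). Dashed lines mark 2-fold, 134 other genes lie outside the axes, and the LINC genes sit mostly at low levels, with LINC03009 and LINC01588 far to the right among the higher genes.

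Among the 12 LINC genes whose mean level was 20 TPM or more, LINC03009 and LINC01588 were higher with JIB-04 by over 2-fold and none was lower by that much. At that level 5.09% of all 7364 genes were higher and 5.77% lower, and 12 genes are too few to set a share beside these. LINC03009 (Entrez ID 100133091, chromosome 7 of hg19, 76178658 to 76257299, plus strand) was at 14.2 TPM with DMSO against 51.4 TPM with JIB-04, from 455 and 1358 estimated fragments. Its log2 ratio was 1.78 (interval 1.64 to 1.93). LINC01588 (Entrez ID 283551, chromosome 14, 50448387 to 50474238, minus strand) was at 29.1 and 90.4 TPM, which made it the highest LINC gene of the JIB-04 library. Its log2 ratio was 1.60 (interval 1.47 to 1.73), and the most abundant of its 5 transcripts held 82.0% of its level with DMSO and 86.3% with JIB-04.

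LINC00482 (Entrez ID 284185, chromosome 17, 79276624 to 79283048, minus strand) was weaker, with 2.43 TPM with DMSO against 10.9 TPM with JIB-04, from 86 and 320 fragments. Its log2 ratio was 1.80 (interval 1.53 to 2.06), close to that of LINC03009. LINC02015 (chromosome 3, 177534653 to 177617012, plus strand) was at 3.91 and 10.3 TPM, with a log2 ratio of 1.21 (interval 0.96 to 1.46). These 4 genes are those of the higher group with over 100 fragments in the JIB-04 library.

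The promoters of LINC00482, LINC03009, LINC01564 and LINC01588 are shown because these genes were higher in the same library while their starts differ in sequence. Those of the other higher genes are not printed. The windows run from 250 bases before to 50 bases after the gene's start in the RefSeq annotation of GRCh38.p14. Capitals mark the letters ACGTG or GCGTG read on either strand. Background to these letters is that ACGTG and GCGTG form the core of the element bound by hypoxia-inducible factors, and GCGTG also that of the element bound by the aryl hydrocarbon receptor. LINC00482 (chr17:81309199-81309498, minus strand) has 1 ACGTG, on the other strand next to its start. LINC03009 (chr7:76549091-76549390, plus strand) has 5 overlapping or neighbouring GCGTG. LINC01564 (chr6:53628130-53628429, plus strand) and LINC01588 (chr14:50007471-50007770, minus strand) have none. In hg19 the most abundant transcript of LINC01588 starts 14386 bases inside the outermost start of the gene, so the window shown for it was not matched to the start of that transcript. The same holds for LINC02608 (50285 bases) and LINC01587 (587 bases).
LINC00482: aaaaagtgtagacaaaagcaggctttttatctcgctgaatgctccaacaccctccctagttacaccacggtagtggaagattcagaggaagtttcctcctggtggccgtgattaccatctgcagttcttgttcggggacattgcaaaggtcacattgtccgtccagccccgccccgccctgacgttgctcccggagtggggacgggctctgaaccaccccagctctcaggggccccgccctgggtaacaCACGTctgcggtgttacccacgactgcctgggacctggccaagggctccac
LINC03009: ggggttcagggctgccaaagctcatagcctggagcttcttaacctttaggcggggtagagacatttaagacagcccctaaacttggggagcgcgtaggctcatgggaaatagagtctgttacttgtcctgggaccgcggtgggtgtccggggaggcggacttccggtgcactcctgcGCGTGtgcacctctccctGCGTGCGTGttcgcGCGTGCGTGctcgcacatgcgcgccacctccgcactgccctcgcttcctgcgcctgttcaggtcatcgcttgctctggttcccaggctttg
LINC01564: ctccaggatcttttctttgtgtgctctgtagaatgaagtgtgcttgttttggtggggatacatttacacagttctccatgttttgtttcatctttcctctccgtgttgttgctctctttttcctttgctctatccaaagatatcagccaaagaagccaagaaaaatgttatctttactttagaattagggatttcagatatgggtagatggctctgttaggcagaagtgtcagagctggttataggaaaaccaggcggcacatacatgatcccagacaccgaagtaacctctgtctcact
LINC01588: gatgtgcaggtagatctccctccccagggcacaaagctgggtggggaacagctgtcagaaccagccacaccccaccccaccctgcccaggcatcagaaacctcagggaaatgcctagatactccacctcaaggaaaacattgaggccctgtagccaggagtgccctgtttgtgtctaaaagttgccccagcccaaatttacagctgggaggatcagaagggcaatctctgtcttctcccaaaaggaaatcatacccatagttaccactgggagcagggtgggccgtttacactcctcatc

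A promoter was found in the RefSeq table for 146 of the 212 LINC genes, 13 of the higher and 9 of the lower ones. ACGTG or GCGTG lay in 49.3% of the LINC promoters, in 48.4% of all 27305 promoters of the same length, and in 62.9% of the 11101 promoters of genes that reached 1 TPM. Of the 13 higher genes 3 held either (23.1%), namely LINC00482, LINC03009 and LINC01063, and of the 9 lower genes 4 did (44.4%). The other higher genes had neither within this window, among them LINC01588, LINC02608 and LINC01587, whose windows were not matched to the start of their most abundant transcript. The promoter of LINC01431 (chr20:23358078-23358377, minus strand), a lower gene, is shown because it holds CACGTG, in which ACGTG is read on both strands, and 1 GCGTG read on the other strand. CACGTG was not particular to a lower gene, as the window of LINC01063, a higher gene, holds it too.
LINC01431: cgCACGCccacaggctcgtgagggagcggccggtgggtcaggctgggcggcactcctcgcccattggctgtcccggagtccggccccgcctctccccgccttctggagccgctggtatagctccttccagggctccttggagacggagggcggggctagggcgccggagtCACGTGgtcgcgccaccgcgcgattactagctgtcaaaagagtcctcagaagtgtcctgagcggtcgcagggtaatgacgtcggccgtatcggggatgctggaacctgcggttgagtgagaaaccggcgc

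The LINC promoters had a median GC content of 56.7%, against 58.3% over all promoters and 65% over those of genes that reached 1 TPM. In the 13 higher genes with a window the median was 46.3% and in the 9 lower genes 61%. The values overlapped, running from 41.7% to 68.3% in the higher and from 36% to 68.3% in the lower genes. The windows of LINC01588, LINC02608 and LINC01587 were not matched to the start of their most abundant transcript.

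The remaining 12 higher genes were weak with DMSO, where 9 of them were under 1 TPM. LINC01564 (chromosome 6, 53493178 to 53496192, plus strand), LINC01063 and LINC01587 were listed at 0 with DMSO, and no fold is given for them. With JIB-04 LINC01564 was at 4.85 TPM from 27 fragments, LINC01063 at 2.47 TPM from 8 and LINC01587 at 1.27 TPM from 11. LINC01564 had the highest log2 ratio of TPM + 1 among the LINC genes, 2.55, a value that depends on the pseudocount.

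LINC02608 was at 0.80 TPM with DMSO against 4.32 TPM with JIB-04, and LINC02541 at 0.87 and 4.42 TPM. LINC02185 was at 0.44 and 3.02 TPM, and LINC02582 at 0.58 and 2.71 TPM. LINC01579 was at 0.97 and 3.18 TPM, and LINC00852 at 0.30 and 1.67 TPM. These 6 genes had between 3 and 9 fragments with DMSO and between 14 and 31 with JIB-04, so their ratios are imprecise. LINC02541, from 3 and 14 fragments, had a log2 ratio of 1.53 with an interval from 0.36 to 2.37.

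LINC01767 was better covered, with 3.15 TPM with DMSO against 9.68 TPM with JIB-04 and a log2 ratio of 1.36 (interval 0.73 to 1.99). LINC00957 was at 1.01 and 3.75 TPM, with a log2 ratio of 1.24 (interval 0.79 to 1.65). LINC00525 was at 1.76 and 5.16 TPM, with a log2 ratio of 1.16 (interval 0.66 to 1.64). The 16 higher genes lay on 10 chromosomes, and 7 of them reached 1 TPM in both.

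**Figure D2:**
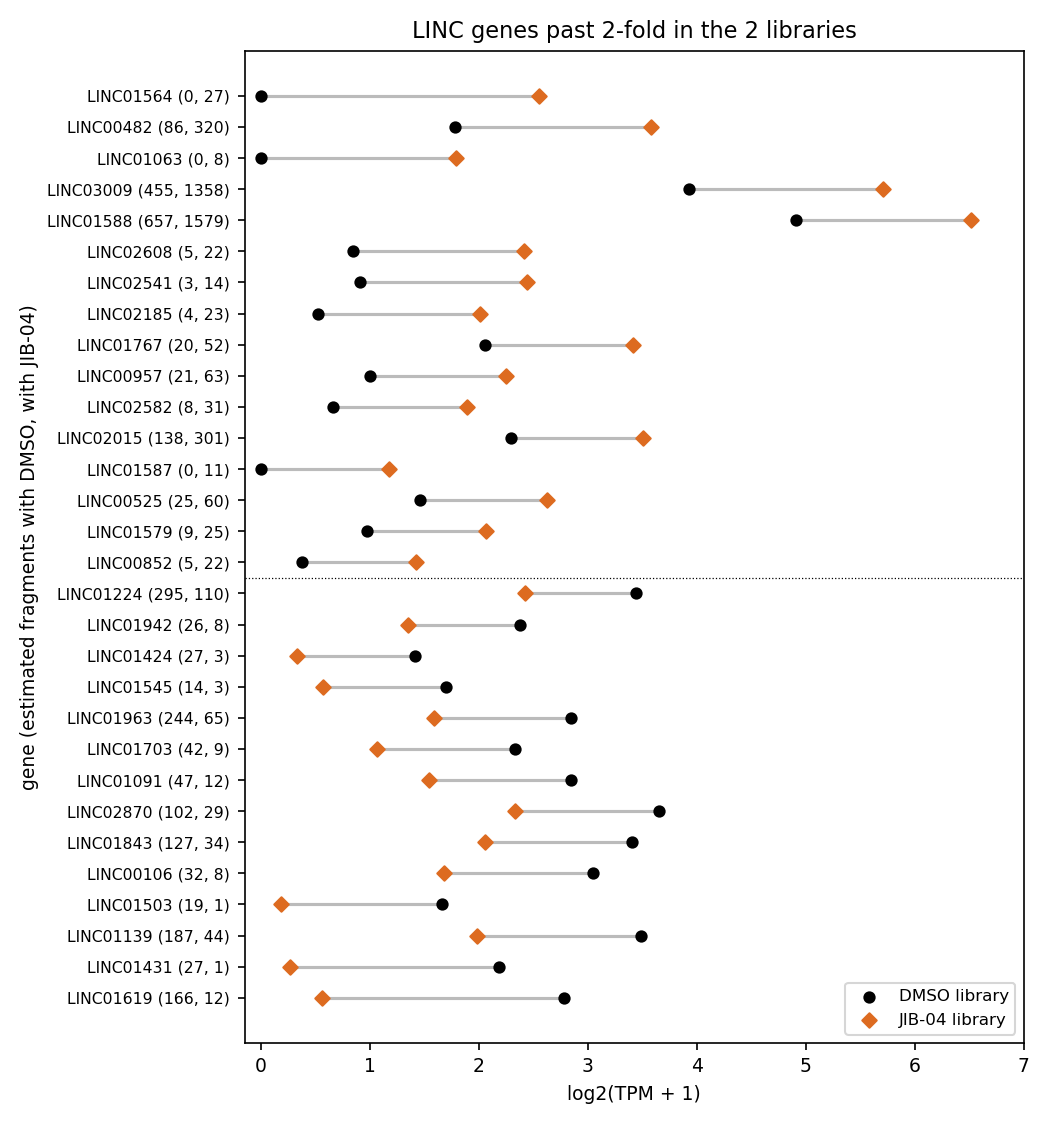
Level of each of the 30 LINC genes past 2-fold in the DMSO library (black circles) and the JIB-04 library (orange diamonds) on the log2(TPM + 1) scale, ordered by log2 ratio, with estimated fragments in parentheses and a dotted line between 16 higher and 14 lower genes. LINC01564, LINC01063 and LINC01587 start at 0 with DMSO, and LINC03009 (455 and 1358 fragments) and LINC01588 (657 and 1579) are the best covered.

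The 14 lower genes were weaker than 20 TPM in both libraries, and 9 reached 1 TPM in both. LINC01139 (Entrez ID 339535, chromosome 1, 238643684 to 238649317, minus strand), also known as LINK-A, a cytoplasmic RNA described in signalling to HIF1α and AKT, was at 10.2 TPM with DMSO against 2.94 TPM with JIB-04. Its log2 ratio was -1.51 (interval -1.89 to -1.13), from 187 and 44 fragments. It was the lower gene with the largest difference whose exons share no base with another gene and whose JIB-04 level was above 1 TPM.

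LINC01843 (chromosome 5, 133842243 to 133844921, plus strand) was at 9.59 and 3.15 TPM, for a log2 ratio of -1.35 (counting interval -1.80 to -0.90). LINC02870 (chromosome 10, 134258714 to 134261825, plus strand) was at 11.6 and 4.02 TPM, for a log2 ratio of -1.33 (counting interval -1.84 to -0.81). In the files the transcript of LINC02870 has the accession of a coding transcript, as do those of 3 other LINC genes. LINC01963 (chromosome 2, 217081612 to 217084915, plus strand), which has a single exon, was at 6.19 and 2.02 TPM from 244 and 65 fragments, for a log2 ratio of -1.25 (counting interval -1.54 to -0.96).

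LINC01091 was at 6.18 TPM with DMSO against 1.92 TPM with JIB-04, LINC01703 at 4.04 and 1.09 TPM, and LINC01942 at 4.19 and 1.55 TPM. LINC01545 was at 2.26 and 0.49 TPM, and LINC01424 at 1.67 and 0.26 TPM, each with 3 fragments in the JIB-04 library. LINC01431 (chromosome 20, 23337231 to 23338764, minus strand) was at 3.56 and 0.20 TPM, and LINC01503, described in squamous cell carcinoma, at 2.17 and 0.14 TPM. Both of the last genes had 1 fragment with JIB-04, with intervals of the log2 ratio from -2.22 to -0.97 for LINC01431 and from -1.71 to -0.69 for LINC01503. In all, 4 of the 14 lower genes rested on 3 fragments or fewer in the JIB-04 library.

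In some of the lower genes reads were divided between transcripts, between copies or with an overlapping gene. They include LINC01091 and LINC01503, given above, and the 3 genes described next. The summed value itself depends on that division in LINC01619, which shares an exon with another gene. LINC01619 (Entrez ID 256021, chromosome 12, 92378752 to 92536607, minus strand) had the lowest log2 ratio, -2.22 (interval -2.50 to -1.86), with 5.88 TPM with DMSO against 0.48 TPM with JIB-04. All 225 bases of the first exon of its most abundant transcript are also exonic in BTG1, an antiproliferative gene on the same strand, and the coverage of that exon on the TPM scale was 20.9 with DMSO and 0 with JIB-04. Over the other 4 exons, which share no base with another gene, the level was 0.97 and 0.53, a log2 ratio of -0.37. BTG1 itself was at 53.7 TPM with DMSO against 104 TPM with JIB-04. The difference of this transcript of LINC01619 therefore lay mainly in the shared exon, and the reads of that exon cannot be assigned to either gene from these files. Another transcript of LINC01619 was at 2.98 TPM with DMSO, 50.7% of the gene's level there, and at 0 with JIB-04. Its exons were not examined, so where the difference of the whole gene lay is not shown.

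LINC00106 lies in the pseudoautosomal region, where the annotation holds 1 copy on X and 1 on Y with the same sequence. Its summed level was 7.28 TPM with DMSO against 2.21 TPM with JIB-04, from 32 and 8 fragments, and the copies cannot be told apart. The X copy was listed at 3.76 and 2.21 TPM (log2 ratio -0.57) and the Y copy at 3.53 TPM and 0. As both have the same sequence, a ratio of 1 copy alone does not measure the gene. The log2 ratio of the sum was -1.37 (counting interval -2.22 to -0.48). LINC01224, which lies in a cluster of zinc finger genes on chromosome 19, was at 9.88 and 4.38 TPM, for a log2 ratio of -1.02 (counting interval -1.29 to -0.75). Its most abundant transcript alone was at 6.71 and 4.38 TPM (log2 ratio -0.52), and its other transcript was at 3.17 TPM and 0. The call rests on the sum of both transcripts, from 295 and 110 fragments.

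Exon by exon, the differences ran through the whole transcript in most of the called genes. In the most abundant transcripts of the 16 higher genes 47 of 49 exons had more coverage with JIB-04, and the other 2 exons, the first ones of LINC00525 and LINC02541, were at 0 in both libraries. In the 14 lower genes 45 of 47 exons had less coverage with JIB-04, and both exceptions were in LINC01503. The exons share the reads that chose the gene, so these counts describe the calls and add no independent evidence.

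From the 5′ end, the 3 exons of LINC03009 had a coverage of 14.4, 8.95 and 14.5 with DMSO and 38.3, 27.9 and 55.9 with JIB-04, on the TPM scale. In LINC01588 the 4 exons were at 33.4, 80.0, 59.2 and 14.8 with DMSO and at 114, 262, 183 and 48.3 with JIB-04. All 4 exons of LINC00482 were higher too, the last, of 2539 bases, at 2.56 and 11.2. LINC01139 differed more in its second exon, at 9.73 and 2.28, than in its first, at 13.1 and 6.62.

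**Figure D3:**
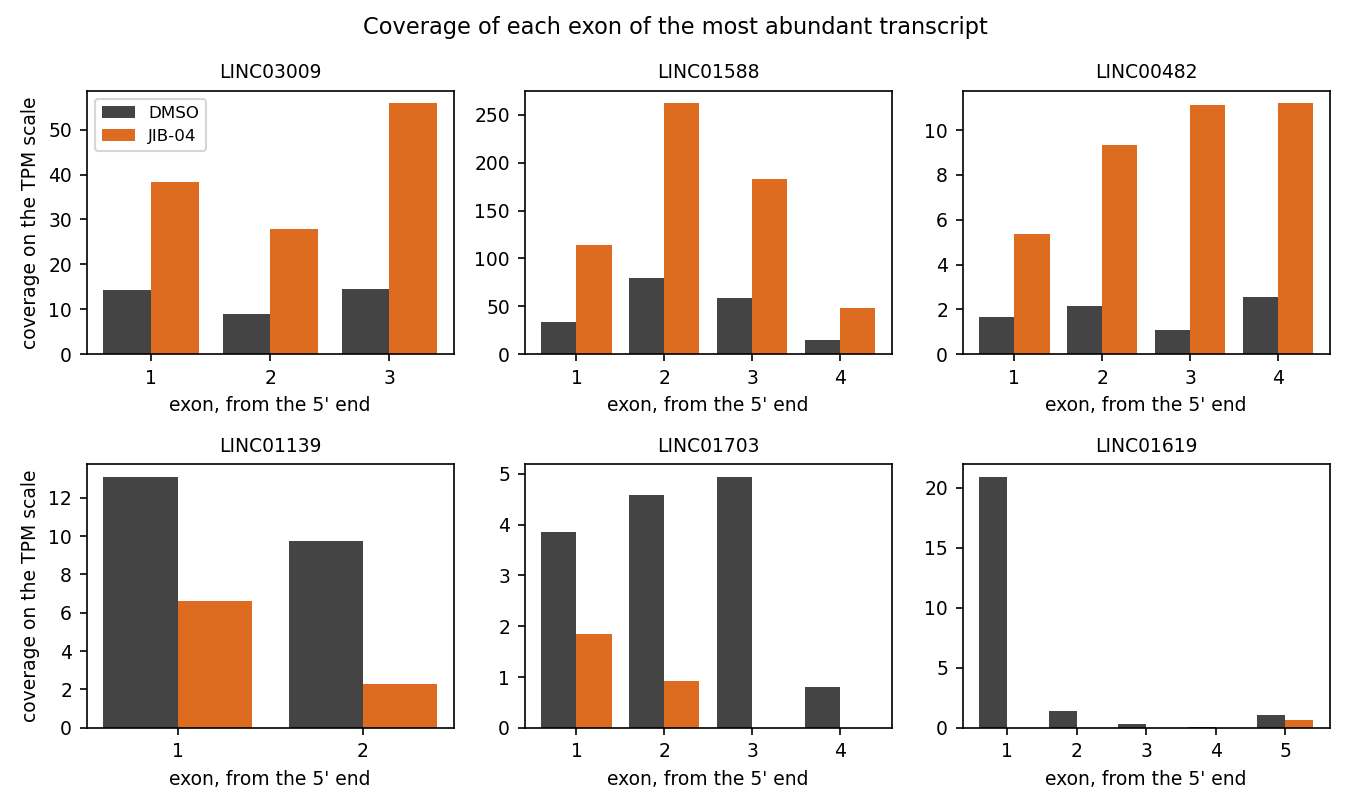
Coverage of each exon of the most abundant transcript of 6 LINC genes on the TPM scale (y axis, which differs between panels) in the DMSO library (dark bars) and the JIB-04 library (orange bars), with exons numbered from the 5' end. All exons of LINC03009, LINC01588 and LINC00482 are higher with JIB-04, and in LINC01619 the first exon alone stands out, with 20.9 and 0.

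The most abundant LINC genes of these cells were mostly within 2-fold. LINC00473 (chromosome 6, 166337536 to 166401527, minus strand), an RNA induced by cAMP and CREB, was the highest with DMSO and was at 122 TPM there and 67.3 TPM with JIB-04. Its log2 ratio was -0.85 (interval -0.95 to -0.75), and both of its transcripts were lower, at 102 and 61.2 TPM and at 20.3 and 6.10 TPM. On the other strand LINC00602 overlaps 489 of the 511 bases of the first exon of its most abundant transcript. How well reads were kept apart there was not tested. The second exon, outside that overlap, had a coverage of 117 and 70.7 on the TPM scale. LINC01419, on chromosome 8 and described in hepatocellular carcinoma, was at 111 and 58.9 TPM, for a log2 ratio of -0.91 (counting interval -1.02 to -0.79). Both genes were deeply covered, with 878 fragments or more in each library, and their intervals lay clear of 0.

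LINC00857 was at 69.9 and 75.8 TPM, LINC00221 at 61.4 and 58.7 TPM, LINC02381 at 35.4 and 35.3 TPM and LINC03099 at 24.2 and 25.1 TPM. These 4 genes differed by less than 0.12 on the log2 scale, above the median of all genes in each case. LINC00508 was at 19.6 and 29.0 TPM, for a log2 ratio of 0.54 (counting interval 0.34 to 0.75), and LINC02506 at 27.0 and 17.8 TPM, for a log2 ratio of -0.57 (counting interval -0.87 to -0.27).

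Of 11 LINC genes listed for a described role in liver, in tumours or in the p53 response, 7 reached the TPM limit, and none of these was past 2-fold. LINC00261 (chromosome 20, 22541192 to 22559280, minus strand), which lies beside FOXA2 and is described in endoderm, was at 10.3 TPM with DMSO against 6.14 TPM with JIB-04. Its log2 ratio was -0.67 (interval -0.84 to -0.49). LINC01234 was at 27.6 and 15.6 TPM, for a log2 ratio of -0.78 (counting interval -0.96 to -0.60). Of the 3 exons of its most abundant transcript only the last had less coverage, but that exon makes up 2019 of 2222 bases. Its other transcript was also lower, at 3.72 and 0.89 TPM. LINC00665, described in liver tumours, was at 6.38 and 8.99 TPM, for a log2 ratio of 0.44 (counting interval 0.07 to 0.81).

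LINC-PINT, a p53-induced transcript, was at 4.25 and 3.63 TPM over 11 annotated transcripts. Its most abundant transcript was at 1.78 and 0.79 TPM from 66 and 24 fragments (log2 ratio -0.64), and its share of the gene was 42.0% and 21.7%. LINC00467 was at 5.85 and 6.53 TPM, LINC00511 at 1.31 and 0.79 TPM and LINC00324 at 0.73 and 1.35 TPM. The intervals of the summed levels of these 4 genes all held 0, so at this depth a difference in the sum was not detectable. LINC01554, LINC00844, LINC01018 and LINC-ROR were not among the genes at or above the limit.

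Across all 212 genes, structure did not separate the genes past 2-fold in a visible way. The most abundant transcripts had a median spliced length of 1419 bases (328 to 11193) and a median of 3 exons (up to 18). The 22 genes with a single exon had a median log2 ratio of -0.17, with 1 higher and 1 lower, and the 190 with more exons a median of -0.19, with 15 higher and 13 lower. The genes lay on 23 chromosomes. In the files 153 had 1 transcript, 6 had more than 1 locus and 9 shared exonic bases with another gene on the same strand, of which LINC01588 (1.10%) and LINC01619 (11.1%) were past 2-fold.

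The sum over transcripts hid opposite values in 3 genes, LINC00339, LINC01128 and LINC02901, each with 1 transcript past 2-fold higher and another past 2-fold lower. In LINC01128 a transcript of 6490 bases was listed at 0 with DMSO and at 3.91 TPM with JIB-04, while one of 6776 bases was at 3.61 and 1.21 TPM. Such transcripts share most of their exons, and how their reads were divided is an estimate.

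The nearest protein-coding gene was compared because LINC RNAs are often discussed with their neighbours. Over all 212 LINC genes the median gap was 36938.5 bases, and for 156 of them the neighbour had at least 1 TPM in either library. Across these 156 pairs Pearson's r of the log2 ratios was 0.06 and Spearman's rho 0.15, given as a description, since pairs share libraries and some share a neighbour. Of 9 higher LINC genes with such a neighbour none had a neighbour higher by 2-fold and 1 had a neighbour lower by 2-fold. Of 13 lower LINC genes 1 had a higher neighbour and none a lower one. Beside the 134 LINC genes within 2-fold, 7 neighbours were higher and 9 lower, and over all genes 5.99% were higher and 6.88% lower, so the counts beside the called genes are near what genes in general gave.

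LINC03009 and POMZP3, a gene built of duplicated parts of POM121 and ZP3, lie on opposite strands and differed in opposite directions. POMZP3 was at 19.7 TPM with DMSO against 5.71 TPM with JIB-04, for a log2 ratio of -1.63 (counting interval -1.93 to -1.32). They overlap in 812 bases of the third exon of LINC03009, and the first and second exons, which lie outside the overlap, were also higher with JIB-04. The files were made with a strand setting, but how well it kept the reads of both genes apart in the overlap was not tested. Reads of POMZP3 can also match its parent genes, which leaves its level uncertain.

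LINC00261 and FOXA2, a transcription factor of liver and endoderm, lie 2362 bases apart on the same strand and also differed in opposite directions. FOXA2 was at 13.0 TPM with DMSO against 42.7 TPM with JIB-04, for a log2 ratio of 1.65 (counting interval 1.48 to 1.81). LINC00261 was lower within 2-fold, mainly in its last exon. Directions were mixed among other LINC genes within 2-fold whose neighbour was past 2-fold. LINC01876 (log2 ratio -0.92) was lower together with NR4A2 (-1.32), while LINC00491 (-0.66) was lower beside a higher PAM (1.40). LINC01703 was lower beside H3-3A, a histone H3.3 gene listed at 0.52 and 2.28 TPM, whose near-identical copies in the genome leave its own level uncertain.

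The neighbours of other called genes were within 2-fold, with differences from almost none to nearly 2-fold. ARF6, 84615 bases from LINC01588, was at 107 TPM in both libraries, with a log2 ratio within 0.06 of 0 by its interval. SLC38A10, 7485 bases from LINC00482 on the same strand, was at 119 and 104 TPM. LINC01963 was lower together with XRCC5, the Ku80 gene of DNA repair, which was at 496 and 261 TPM, for a log2 ratio of -0.92 (counting interval -0.96 to -0.89). NXT1, 1823 bases from LINC01431, was at 39.5 and 24.4 TPM, with a log2 ratio of -0.67.

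Head to head with a coding gene were 9 LINC genes, counted where the most abundant transcript started within 1000 bases of the coding start. In all 9 the coding partner was the higher of both RNAs in each library. The only such gene past 2-fold was LINC01424, whose partner UBE2G2, a ubiquitin-conjugating enzyme, starts 405 bases away and was at 87.5 and 120 TPM. LINC02608, a higher gene, lies 516 bases from PPP2R5A on the opposite strand. It was not counted because its most abundant transcript starts 50285 bases inside its outermost start. The median log2 ratio was -0.29 for these 9 LINC genes and -0.07 for their partners.

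**Figure D4:**
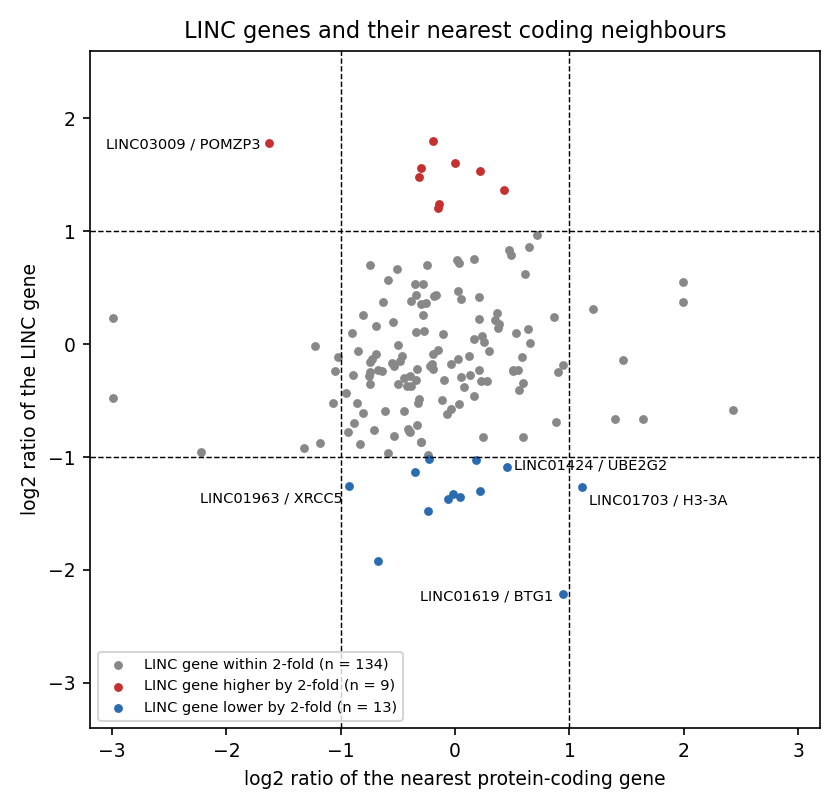
Log2 ratio of TPM + 1, JIB-04 over DMSO, of the nearest protein-coding gene (x axis) against that of the LINC gene (y axis) for 156 pairs, with LINC genes higher in red, lower in blue and within 2-fold in grey, and dashed lines at 2-fold. The points form no line, and LINC03009 with POMZP3 and LINC01619 with BTG1 lie in opposite corners.

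Other noncoding genes are classed by their symbols too, and were set beside the LINC genes by their counts. Of 312 antisense genes 16 were higher (5.13%) and 22 lower (7.05%), with a median log2 ratio of -0.21. Of 99 divergent or intronic transcripts, which start next to or within a coding gene, 3 were higher (3.03%) and 14 lower (14.1%), with a median of -0.44. Of 44 host genes of small RNAs 2 were higher (4.55%) and 7 lower (15.9%), with a median of -0.15. The LINC genes had the highest count of higher genes relative to lower ones among these 4 classes, 16 against 14. Their shares of 7.55% and 6.60% were near the 5.99% and 6.88% of all genes. The other noncoding classes were not counted again after scaling. No test of the difference between classes was possible with 1 library per condition.

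Genes of nuclear RNA decay, from a list of the exosome, its cofactors, cap-binding factors and poly(A) polymerases, were all measured, 31 of 31. TENT4A, a noncanonical poly(A) polymerase, was at least 2-fold higher, at 20.3 TPM with DMSO against 51.0 TPM with JIB-04. EXOSC4 and EXOSC6, subunits of the exosome core, were at least 2-fold lower, at 61.1 and 22.4 TPM and at 27.0 and 11.2 TPM. The other 28 stayed within 2-fold, among them MTREX, the exosome's helicase, at 47.3 and 26.8 TPM, and the median log2 ratio of the list was -0.37, below the -0.15 of all genes. The 1 higher and 2 lower of 31 are no more than the 5.99% and 6.88% of all genes. Their part in the levels of the LINC genes was not tested.

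At the limit itself, LINC01970 was just inside with 1.00 TPM with DMSO against 0.51 TPM with JIB-04, as were LINC03015 with 1.02 and 0.88 TPM and LINC00886 with 0.58 and 1.03 TPM. Just outside were LINC02361 with 0.65 and 0.99 TPM, LINC02154 with 0.06 and 0.95 TPM and LINC02211 with 0.95 and 0.82 TPM. LINC02154, with 1 and 13 fragments, shows that the limit also left out weak genes that differed between the libraries. No call was lost by this, since a gene under 1 TPM in both libraries cannot reach 2-fold on TPM + 1. Without a filter on TPM the counts stayed at 16 higher and 14 lower.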

How the data were processed

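RNA sequencing compared PLC/PRF/5 cells given DMSO with cells given 6 µM JIB-04, both for 24 h. Tools listed in the submitters' processing notes are StringTie 1.3.3b, HISAT2 2.0.5, Trimmomatic 0.32, Bowtie2 2.2.6 and FastQC 0.11.5, on hg19 (GRCh37). For each RefSeq transcript the authors deposited coverage, FPKM and TPM, with StringTie's strand setting and estimation of annotated transcripts only, and coverage of each exon. TPM was summed per gene. Symbols were matched by Entrez ID to a RefSeq table of GRCh38.p14, which named 27559 of 27685 genes. The log2 ratio is that of TPM + 1, JIB-04 over DMSO, and ratios of at least 2 or at most 0.5 were called.

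Coverage times length, divided by 202 bases, estimated the fragments, and the 95% exact conditional binomial interval of a ratio covers counting error only. With 1 library per group no test was made. Named genes are every gene past 2-fold, the 10 most abundant, the 10 highest and 10 lowest ratios, genes with described roles and those nearest the TPM limit, with their nearest coding neighbours. The members and lists were chosen with earlier results of these data known. Scripts were tested on simulated data. Python 3.11.15, numpy 2.4.6, pandas 2.3.3, SciPy 1.17.1 and matplotlib 3.10.9 were used. The alternatives tried were other pseudocounts, filters, units, scalings, transcripts and thresholds.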

Additional observations from a re-analysis of the deposited data

How the results depend on the processing

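Each library is the only one of its group, so differences between cultures and preparations cannot be measured, and counting error alone limits the weak genes. No paired analysis was possible because each group has 1 library. Every alternative that gives a median log2 ratio of the LINC genes left it below 0, and no named gene past 2-fold changed direction. Over all genes the calls were counted again only after scaling. The LINC counts under the other alternatives thus have no share of all genes beside them. They cannot be read as particular to LINC genes. With a pseudocount of 0.1 there were 25 higher and 33 lower LINC genes and the median was -0.24. With a pseudocount of 5, which by construction shrinks weak genes, there were 3 higher (LINC00482, LINC03009 and LINC01588) and 0 lower, and the median was -0.081. With FPKM in place of TPM 7 were higher and 6 lower. The pseudocount stayed at 1 there, which by construction shrinks weak genes more where FPKM is smaller than TPM. LINC01063, listed at 0 with DMSO, had a log2 ratio of 0.999 on FPKM against 1.79 on TPM. The abundant LINC00473 was at -0.86 and -0.85. A summed TPM of at least 5, which leaves fewer genes, gave 6 and 8. A threshold of 1.5-fold gave 33 and 49, and one of 3-fold gave 5 and 2. The median was -0.068 after scaling to genes at or above 10 TPM in both libraries and -0.050 without a filter on TPM, where 503 genes entered. Leaving out genes with over 1 locus or a shared exonic base, chosen after seeing the data, gave 15 higher and 12 lower. Without counting pseudocount 5, 7 of the 16 higher and 5 of the 14 lower genes stayed past 2-fold under the other alternatives to their values.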
